A study of Mus musculus with 4 samples.

Results

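The E2 ubiquitin-conjugating enzymes were followed in a mouse macrophage line in which protein degradation by the proteasome had been blocked. Members were the genes whose RefSeq symbol begins with Ube2, less 2 genes, with a spot called well above background by the scanner software on at least 1 of 4 arrays. The arrays held probes for 33 such genes, of which 30 met this rule and 29 were well above background on all 4 arrays, out of 14384 and 12728 genes, respectively, in the whole series. Of the 30 members, 29 are protein coding, and the remaining one, *Ube2d-ps*, is a transcript of a pseudogene.

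RNA came from J774.1 cells, a line of monocyte-macrophage type kept in serum-containing medium. The cells were cultured for 4 hours with the solvent DMSO alone or with 1 μM of MG132, epoxomicin or an ONX compound. MG132 is a peptide aldehyde that blocks the proteasome and also some other proteases, epoxomicin is a selective inhibitor of the 20S core, and the ONX compound is described as acting on the β5 and β5i subunits. The treatment field of that array names ONX-0912, whereas the treatment protocol names ONX 0914, so it is called the ONX array here. There was 1 array per condition, and every difference below therefore compares 2 arrays, has no replicate check and carries no P value. The inhibitor arrays were all compared with the same DMSO array, so a gene's differences with the inhibitors are not independent of each other.

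Ubiquitin is activated by an E1 enzyme, handed to the active-site cysteine of an E2, and then passed to a substrate, usually with the help of an E3 ligase. With many E3 ligases, though not all, the E2 largely determines which kind of ubiquitin chain is built. Some E2s place the first ubiquitin, others extend chains through a particular lysine of ubiquitin, and a few carry related modifiers such as NEDD8 or ISG15 instead. In macrophages, E2s serve the disposal of misfolded proteins, signaling from Toll-like and TNF receptors, and the interferon-induced conjugation of ISG15.

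The promoters of 4 members are shown. *Ube2t* and *Ube2s* were the members that differed at least 2-fold from DMSO, and *Ube2j1* and *Ube2j2* encode the membrane-anchored E2s of the endoplasmic reticulum. Of these, *Ube2j1* stayed within 1.5-fold of DMSO with every inhibitor. No promoter entry was available for *Ube2g2*, which is described below with them. The 130 bases before the start of each gene (for *Ube2j2*, the first of 2 listed starts), in the direction of transcription, were taken from RefSeq (GRCm38.p6). Capitals mark CCAAT boxes in *Ube2t* and, on the opposite strand, the core of an unfolded protein response element in *Ube2j1*.
Ube2t, chr1:134962435-134962564, plus strand: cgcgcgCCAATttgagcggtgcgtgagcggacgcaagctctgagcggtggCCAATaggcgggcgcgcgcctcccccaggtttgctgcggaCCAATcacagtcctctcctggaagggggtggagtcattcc
Ube2s, chr7:4812341-4812470, minus strand: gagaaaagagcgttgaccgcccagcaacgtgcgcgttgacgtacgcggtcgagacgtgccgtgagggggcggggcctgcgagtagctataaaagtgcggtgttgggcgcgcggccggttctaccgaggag
Ube2j1, chr4:33031250-33031379, plus strand: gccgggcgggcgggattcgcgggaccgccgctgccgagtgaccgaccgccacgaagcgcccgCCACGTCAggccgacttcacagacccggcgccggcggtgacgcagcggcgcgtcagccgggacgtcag
Ube2j2, chr4:155943683-155943812, plus strand: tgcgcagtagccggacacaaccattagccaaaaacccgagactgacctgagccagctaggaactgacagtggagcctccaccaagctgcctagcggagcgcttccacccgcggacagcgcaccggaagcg

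*Ube2t* had 3 CCAAT boxes, which began 124, 80 and 40 bases before the start. A CCAAT box lay within the 250 bases before the start in 6 of the 34 promoters that the RefSeq table lists for 24 members, and in 33.8% of all 32851 promoters. The element core TGACGTGG was found in 1 of the 34, that of *Ube2j1*, where it ended 61 bases before the start, and in 0.563% of all promoters. In *Ube2j1* it overlapped one of 2 matches to the antioxidant response element core TGACNNNGC, which 5 of the 34 and 10.2% of all promoters held. Other motifs searched on both strands were the cyclic AMP response element TGACGTCA (0 of the 34, 1.55% of all promoters), the C/EBP-ATF element TGATGCAA (0 of the 34, 0.791%), the E2F site TTTCCCGC (*Ube2q1*, 0.895%) and the cell cycle homology region TTTGAA (*Ube2f* and *Ube2z*, 16.0%). These matches describe letters in a window and were not tested for binding.

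Signals were compared after dividing each by the 75th percentile of its own array, and differences are given as log2 values, so that 1 is a 2-fold difference in scaled signal. No member reached a 2-fold increase with any inhibitor. With MG132, 0 of 30 members were at least 2-fold higher (7.13% of all genes), and 1 was at least 2-fold lower (*Ube2t*; 3.63% of all genes). With epoxomicin, 0 members were higher against 8.38% of all genes, and 1 was lower (*Ube2s*) against 4.35%. Both calls lay at the threshold: that of *Ube2t* was lost when normexp background correction was fitted without outlier spots (-0.95), and that of *Ube2s* under quantile normalization (-0.94) and under normexp fitted on all spots (-0.88). With ONX, 0 members were higher and 0 lower, against 3.22% and 1.38% of all genes. One of 30 members is 3.33%, near the background for decreases. In bulk RNA, fewer cells of a type and less RNA per cell cannot be told apart.

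**Figure D1:**
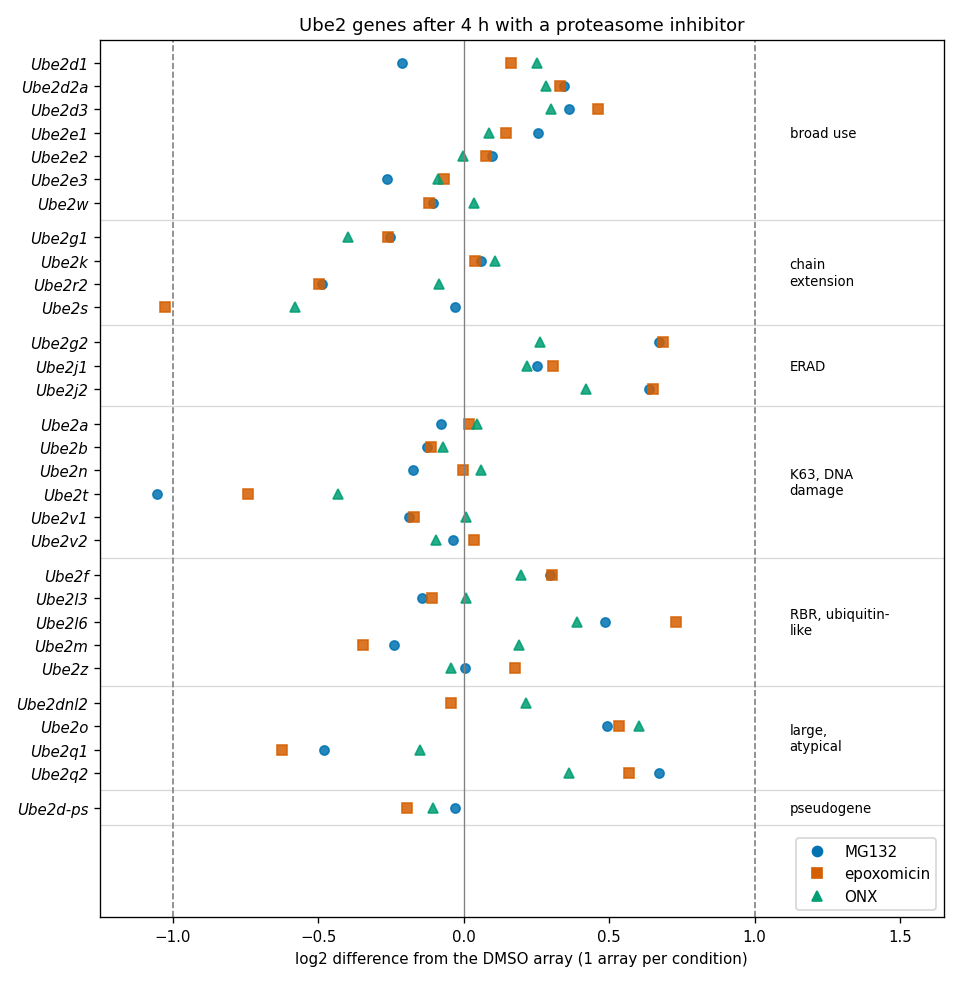
Log2 difference of each of the 30 Ube2 genes from the DMSO array (x axis), grouped by role, with circles for MG132, squares for epoxomicin and triangles for ONX; each symbol is 1 array against 1 array and dashed lines mark 2-fold. Only *Ube2t* with MG132 and *Ube2s* with epoxomicin lie beyond a dashed line, the 3 genes of ER-associated degradation (ERAD) lie right of 0 on all arrays, and *Ube2dnl2* has no MG132 symbol because it was not well above background with MG132 and its bound gave no fold; its epoxomicin symbol is a bound.

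At a 1.5-fold threshold, 3 members were higher with MG132 (*Ube2g2*, *Ube2j2* and *Ube2q2*; background 14.7%) and 1 was lower (12.7%). With epoxomicin, 3 were higher (*Ube2g2*, *Ube2j2* and *Ube2l6*; background 16.3%) and 3 were lower (*Ube2q1*, *Ube2s* and *Ube2t*; 14.1%). With ONX, 1 was higher (*Ube2o*; 7.53%) and 0 were lower (5.10%). Among genes well above background on all 4 arrays, 21 of 29 members stayed within 1.5-fold of DMSO with all 3 inhibitors, compared with 66.4% of all genes, and 2 of 29 were at least 2-fold away with any inhibitor, compared with 12.7%. Members between 1.5- and 2-fold were singled out after their values had been seen. Several of the 1.5-fold calls depended on the processing. The 3 MG132 increases fell below 1.5-fold after a shift to the array median (0.57, 0.54 and 0.57) and without scaling (0.49, 0.45 and 0.49). With epoxomicin, *Ube2g2* (0.41) and *Ube2j2* (0.57) fell below it as a mean over probes, and *Ube2q1* (-0.55) under normexp. Among the epoxomicin increases, *Ube2l6* stayed past it (0.65 to 0.75).

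The median log2 difference over members was -0.03 with MG132, 0.03 with epoxomicin and 0.05 with ONX, beside medians of -0.02, -0.04 and -0.01 over all genes compared. By SD, the members were spread less widely than the array as a whole. Over the 29 members on all arrays, the differences had an SD of 0.39 (MG132), 0.43 (epoxomicin) and 0.26 (ONX), beside 0.67, 0.73 and 0.44 over 12728 genes. Median absolute differences were closer to each other, at 0.25, 0.26 and 0.15 over members and 0.32, 0.34 and 0.19 over the same genes. Of the 29 members, 25 had a DMSO signal over 1000, and no comparison with genes of like brightness was made. The ONX array gave the smallest of the 3 absolute differences for 18 of 29 members, close to the 64.6% found over all genes.

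**Figure D2:**
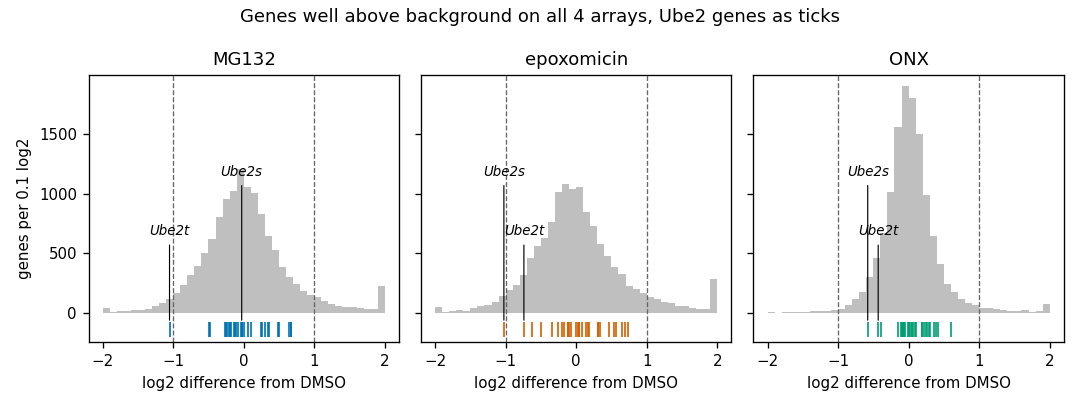
Number of genes (y axis, grey bars, 0.1 log2 wide) by log2 difference from DMSO for 12728 genes well above background on all 4 arrays, 1 panel per inhibitor, with the 29 Ube2 genes as colored ticks under the bars. The end bars at -2 and 2 also hold all genes beyond them, dashed lines mark 2-fold, and the Ube2 ticks stay inside the dashed lines except *Ube2t* with MG132 and *Ube2s* with epoxomicin.

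The general-purpose E2s, which can work with many ligases, were measured by 7 genes and none passed 1.5-fold. By the probe that stands for each gene, their differences ran from -0.26 to 0.46. *Ube2d3* and *Ube2d2a*, close relatives that often place the first ubiquitin, were the highest of this group by these probes. *Ube2d3* had signals of 12714 (DMSO), 14370 (MG132), 17755 (epoxomicin) and 15233 (ONX), which gave log2 differences of 0.36, 0.46 and 0.30. Its other probe gave 0.13, 0.12 and 0.18. The other *Ube2d2a* probes gave 0.23, 0.34 and 0.16, and 0.01, -0.04 and 0.11. *Ube2d1*, of the same subfamily, was the one whose MG132 array (-0.21) and epoxomicin and ONX arrays (0.16 and 0.25) lay on opposite sides of DMSO, although normexp background correction put the latter 2 below DMSO as well (-0.23 and -0.12). *Ube2e2* was the calmest gene of the group, with signals of 4356, 4100, 4659 and 4230 on the DMSO, MG132, epoxomicin and ONX arrays, and no difference above 0.10. *Ube2w*, which attaches ubiquitin to the amino terminus of substrates, lay between -0.12 and 0.04. Its other probes reached -0.24 and 0.19 with epoxomicin.

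Among the 4 chain-extending E2s, *Ube2s* stood out. It encodes the E2 that extends lysine-11 chains for the anaphase-promoting complex in mitosis. Its signal was 33144 (DMSO), 28581 (MG132), 16513 (epoxomicin) and 21586 (ONX). After scaling, the MG132 array was level with DMSO (-0.03), the epoxomicin array was 2.03-fold lower (-1.02), and the ONX array was 1.49-fold lower (-0.58). The difference between epoxomicin and MG132, -0.996, ranked 34 from the lowest of 12728 genes. The other 28 members measured on all arrays had an epoxomicin value between 0.17 below and 0.38 above that of MG132.

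The other chain-extending E2s were closer to DMSO than *Ube2s* was with epoxomicin and with ONX, but not with MG132. *Ube2r2*, a partner of cullin-RING ligases, had signals of 6555, 4114, 4712 and 6022 on the DMSO, MG132, epoxomicin and ONX arrays, and was 1.40-fold lower with MG132 and 1.41-fold lower with epoxomicin but 1.06-fold lower with ONX. *Ube2g1* gave -0.25, -0.26 and -0.40. *Ube2k*, which builds lysine-48 chains, was the calmest, with signals of 16658, 15274, 17338 and 17487 and no difference above 0.11. A fainter *Ube2k* probe, at a signal of 92.6 with DMSO, gave 0.93 with MG132, 0.49 with epoxomicin and 0.26 with ONX, so this gene's probes did not give 1 value.

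The 3 E2s of ER-associated degradation, the pathway that sends misfolded proteins of the endoplasmic reticulum to the proteasome, were above DMSO on every inhibitor array. The share of all genes above DMSO on every inhibitor array was not counted. The median difference of the 3 E2s was 0.64 with MG132, 0.65 with epoxomicin and 0.26 with ONX. *Ube2g2*, a soluble E2 of this pathway, had signals of 5355 (DMSO), 7500 (MG132), 8733 (epoxomicin) and 6253 (ONX). It was 1.59-fold higher with MG132, 1.61-fold with epoxomicin and 1.20-fold with ONX. *Ube2j2*, anchored in the ER membrane, had signals of 39170, 53590, 62349 and 51025, and was 1.56-fold, 1.57-fold and 1.34-fold higher in the same order. *Ube2j1*, the other anchored E2, which works with the ligase Hrd1, had signals of 9784, 10246, 12260 and 11067 and was 1.19-fold, 1.24-fold and 1.16-fold higher. None of the 3 reached 2-fold.

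The probes for this group can be set against each other. All 3 *Ube2j2* probes agreed, with differences of 0.56 to 0.64 for MG132, 0.52 to 0.65 for epoxomicin and 0.35 to 0.42 for ONX. The second *Ube2g2* probe, at a signal of 762 with DMSO, gave smaller differences of 0.36, 0.14 and 0.19. The other *Ube2j1* probes gave 0.16, 0.17 and 0.23, and 0.40, 0.45 and 0.37. The genes for the partner ligase Hrd1 (*Syvn1*) and for the *Ube2g2* cofactor *Aup1* lay between -0.21 and 0.32 over the 3 inhibitors.

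**Figure D3:**
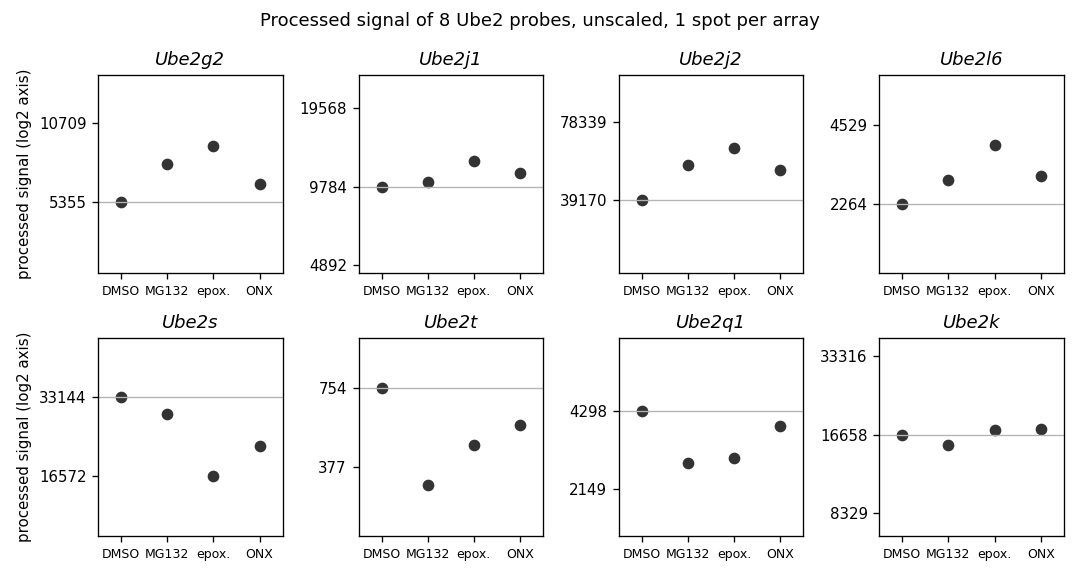
Processed signal before scaling (y axis, log2 scale, arbitrary units, 1 spot per array) of 8 Ube2 genes on the DMSO, MG132, epoxomicin (epox.) and ONX arrays; the grey line is the DMSO signal and every panel spans the same ratio. The ERAD genes *Ube2g2* and *Ube2j2* sit above the line on all inhibitor arrays, *Ube2s* is lowest with epoxomicin (16513), *Ube2t* is lowest with MG132 (320), and *Ube2k* stays at the line.

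In the group of lysine-63 chains and DNA damage, *Ube2t* stood apart. It encodes the E2 of the Fanconi anemia pathway, which with the ligase FANCL marks FANCD2 at DNA crosslinks. Its signal was 754 (DMSO), 320 (MG132), 457 (epoxomicin) and 544 (ONX). All 3 inhibitor arrays were below the shared DMSO array, by 2.07-fold with MG132 (-1.05), 1.67-fold with epoxomicin (-0.74) and 1.35-fold with ONX (-0.43). With MG132, where it was the lowest member, *Ube2t* ranked 347 from the lowest of 12728 genes. Its rank was 1103 with epoxomicin and 1103 with ONX.

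By their brightest probes, the other 5 genes of this group lay between -0.19 and 0.06. They were *Ube2n*, the E2 that builds lysine-63 chains in inflammatory signaling, its inactive partners *Ube2v1* and *Ube2v2*, and the Rad6 homologs *Ube2a* and *Ube2b*, which act with Rad18 at stalled replication forks. *Ube2n* had signals of 2420, 1885, 2451 and 2455 on the DMSO, MG132, epoxomicin and ONX arrays, and *Ube2a*, the calmest by the probe that stands for it, had 7159, 5961, 7355 and 7199. Fainter probes of these genes reached farther: the second *Ube2a* probe gave -0.44, -0.14 and -0.27, and the second *Ube2n* probe gave -0.15, -0.11 and -0.28. A *Ube2v1* probe gave -0.42 with epoxomicin, and a *Ube2v2* probe gave 0.39 with epoxomicin. *Fancl*, the ligase gene, lay within 0.03 of DMSO on all inhibitor arrays.

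Of the 5 E2s described that serve RING-between-RING ligases or ubiquitin-like modifiers, *Ube2l6* was the highest. It encodes the E2 of ISG15, an interferon-induced modifier. Its signal was 2265 (DMSO), 2790 (MG132), 3808 (epoxomicin) and 2884 (ONX), which made it 1.40-fold, 1.66-fold and 1.31-fold higher. *Ube2l3*, its relative that serves parkin and the linear chain complex, was the calmest of the group by the probe that stands for it. That probe had signals of 26758, 21291, 25160 and 26201 on the DMSO, MG132, epoxomicin and ONX arrays and differences of -0.14, -0.11 and 0.01. Another *Ube2l3* probe stayed near these values, at -0.11 with MG132 and -0.08 with epoxomicin. The remaining probes of the gene reached farther, at -0.39, -0.23 and -0.03 (DMSO signal 18517) and at -0.37, -0.44 and -0.23 (DMSO signal 8992). By the probes that stand for them, the 2 NEDD8 E2s differed in sign with both broad inhibitors. *Ube2f* gave 0.30, 0.30 and 0.20, whereas *Ube2m* had signals of 6094, 4542, 4858 and 6769 and gave -0.24, -0.35 and 0.19. A fainter *Ube2f* probe gave 0.12, -0.04 and 0.12, so with epoxomicin it lay on the same side of DMSO as *Ube2m*. *Ube2z*, which carries ubiquitin or FAT10 from Uba6, lay between -0.04 and 0.18.

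The ISG15 cycle was another setting in which a Ube2 gene could be compared with the genes around it. All 5 genes of the cycle were above the shared DMSO array with every inhibitor, a pattern whose share over all genes was not counted. Of the 5, 4 were at least 2-fold higher with MG132 and with epoxomicin (7.13% and 8.38% of all genes) and 3 with ONX (3.22%). *Ube2l6* had the smallest difference of the 5 with each inhibitor. *Isg15*, the modifier, had signals of 3996 (DMSO), 34776 (MG132), 61539 (epoxomicin) and 20370 (ONX), and its differences were the widest of the 5 (log2 differences of 3.31, 3.93 and 2.39). *Uba7*, its E1, gave 1.18, 1.51 and 0.73. *Herc6*, the mouse ISG15 ligase, gave 1.56, 2.03 and 1.09, and *Usp18*, the protease that removes ISG15, gave 2.94, 3.21 and 2.08.

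**Figure D4:**
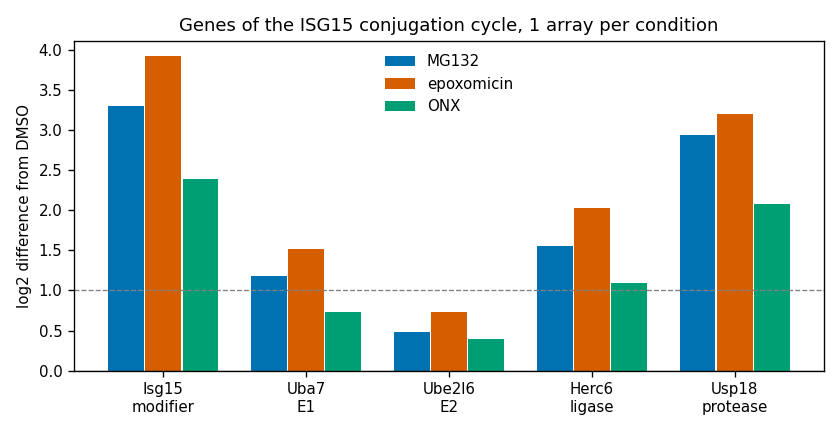
Log2 difference from DMSO (y axis, bars from 0) of the 5 genes of the ISG15 conjugation cycle with MG132, epoxomicin and ONX, each bar 1 array against 1 array and the dashed line at 2-fold. The E2 *Ube2l6* has the shortest bars, at 0.49, 0.73 and 0.39, and stays under the line, while *Isg15* reaches 3.93 with epoxomicin.

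Of the large and less studied E2s, 3 were measured on all arrays. By the probe that stands for each, none of them stayed within 1.5-fold with every inhibitor. *Ube2o*, a very large enzyme that acts as both E2 and E3, had signals of 6052, 7494, 8882 and 8935 on the DMSO, MG132, epoxomicin and ONX arrays. It was 1.41-fold, 1.45-fold and 1.52-fold higher, and under the main processing was the only member to pass 1.5-fold with ONX. The *Ube2o* call with ONX was lost under quantile normalization (0.56) and without scaling (0.56). *Ube2s*, 1.49-fold lower with ONX, passed 1.5-fold without scaling (-0.62). *Ube2q2* and *Ube2q1*, a pair of related genes, differed in sign. *Ube2q2* had signals of 1970, 2762, 2958 and 2462 and gave 0.67, 0.57 and 0.36, whereas *Ube2q1* had 4298, 2713, 2828 and 3773 and gave -0.48, -0.62 and -0.15. The second *Ube2q2* probe, at a signal of 1490 with DMSO, gave 0.47, 0.37 and 0.14, below 1.5-fold with every inhibitor. *Ube2dnl2* was the faintest member, at signals of 20.7, 20.2, 15.4 and 23.4, and was well above background with DMSO and ONX only, where it differed by 0.22. *Ube2ql1*, *Ube2u* and 1 gene that shares the prefix without being an E2 were below background on every array, with signals of 3.61 to 9.35, and are not members. The pseudogene transcript *Ube2d-ps* gave signals of 84.2, 72.6, 74.6 and 76.2. *Ube2h*, *Ube2d2b* and *Ube2dnl1* were not analysed here.

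Several genes had more than 1 probe, which allowed the values to be checked within an array. For the 17 members with several probes well above background on all arrays, the widest gap between probes of a gene had a median of 0.34 on the log2 scale, and it was 1.01 for *Ube2k*, 0.55 for *Ube2g2* and 0.06 for *Ube2b*. None of these genes had a probe that reached 2-fold. *Ube2s*, *Ube2t*, *Ube2l6*, *Ube2o* and *Ube2q1* each rested on 1 probe printed once per array, so no second spot bears on their values. The error model of the scanner software gave an uncertainty between 0.20 and 0.24 for the log2 differences of the 29 members on all arrays and between 0.43 and 0.54 for the faint *Ube2dnl2*, beside median absolute differences over the 29 members of 0.25 with MG132, 0.26 with epoxomicin and 0.15 with ONX.

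**Figure D5:**
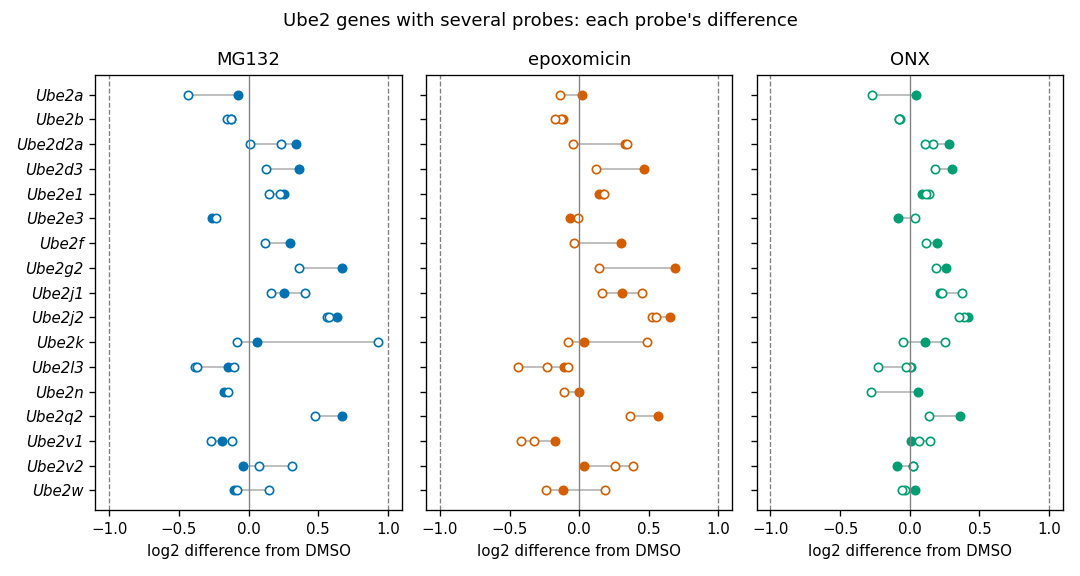
Log2 difference from DMSO (x axis) of every probe of the 17 Ube2 genes with several probes well above background on all 4 arrays, 1 panel per inhibitor; the filled circle is the probe that stands for the gene, open circles are its other probes, and the line spans them. The 3 *Ube2j2* probes lie close together to the right of 0 in each panel, and the faint *Ube2k* probe lies at 0.93 with MG132.

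The enzymes on either side of the E2s were examined from lists. Of 10 E1 genes with a probe, 1 (*Uba7*) was at least 2-fold higher with MG132 and with epoxomicin, beside 7.13% and 8.38% of all genes, and none was with ONX (3.22%). The other 9 included *Uba1*, the main ubiquitin E1, which lay between -0.01 and 0.06. Of 7 E2s and E2-like genes without the prefix, none was 2-fold away in either direction, where 3.63%, 4.35% and 1.38% of all genes were lower with MG132, epoxomicin and ONX. Of 30 ligases and cofactors, 5 were at least 2-fold higher with MG132, 6 with epoxomicin and 2 with ONX, beside the 7.13%, 8.38% and 3.22% of all genes, and none was lower. *Mdm2*, the ligase of p53, had signals of 13352 (DMSO), 177796 (MG132), 206014 (epoxomicin) and 61435 (ONX) (3.92, 3.93 and 2.24). *Trim25*, a ligase of antiviral RNA sensing, gave 1.77, 1.81 and 0.90. *Traf6*, which works with *Ube2n* to build lysine-63 chains, gave 1.07, 1.35 and 0.69. Beside these, the brighter *Ube2n* probe gave -0.18, 0.00 and 0.06, and the fainter one gave -0.15, -0.11 and -0.28. *Arih1*, a RING-between-RING ligase that uses *Ube2l3*, gave 1.02, 1.20 and 0.55.

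The cell line matched its label by most markers. *Csf1r*, *Cd14*, *Itgam*, *Ptprc*, *Fcgr1*, *Adgre1*, *Lyz2* and *Spi1* were well above background on all 4 arrays, *Mrc1* was not on any, and *Cd68* was not analysed here. The 8 measured markers had medians of -0.15 (MG132), -0.10 (epoxomicin) and 0.01 (ONX), with ranges of -0.60 to 0.35, -1.01 to 0.22 and -0.28 to 0.21. At the low end, *Lyz2* and *Spi1* were lower with MG132 (-0.60 and -0.52) and epoxomicin (-1.01 and -0.97) but not with ONX (0.14 and 0.08), and their part in the Ube2 values was not tested. Of 6 markers of other cell types, *Epcam*, *Col1a1*, *Ncr1* and *Alb* were below background on every array. *Cd3e* (signals of 604 to 849) and *Pecam1* (140 to 191) were well above background on all 4 arrays. The *Cd3e* signals were above those of the macrophage marker *Adgre1* (353 to 446) and below those of *Csf1r* (165950 to 210824). Between 60.3% and 63.1% of the 43020 spots per array were well above background, and no spot was saturated.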

How the data were processed

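RNA of 4 cultures was hybridized to 4 single-color (Cy3) Agilent arrays on 1 slide. The authors deposited, per the file headers, Feature Extraction 10.7.1.1 output with the background-subtracted intensity of each spot, unscaled between arrays. They also deposited a table of log2 values, used as an alternative.

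Control spots and outlier spots were left out, log2 of the processed signal was taken, and the array's 75th percentile over all noncontrol spots (1647, 1448, 1669 and 1603 with DMSO, MG132, epoxomicin and ONX) was subtracted. Of 39429 probes, 26581 (67.4%) received a symbol through their accession in the RefSeq table of GRCm38.p6. The Methods name a human array design and the headers a mouse design, so no coordinates from the files were used. The brightest probe stood for a gene, and dim signals were replaced by a bound. A gene dim on both arrays of a comparison was left out of it.

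The rule for named genes took members at least 2-fold from DMSO, those within 0.15 (log2) of that threshold, and the calmest member of each role group. Genes of other lists were named when 2-fold from DMSO with 2 inhibitors, and a few others were chosen after their values were seen. The members and gene lists were chosen with earlier results of these data known. Of genes with the prefix, 2 are not reported here. Calculations were tested on simulated data and used Python 3.11.15, numpy 2.4.6, pandas 2.3.3, matplotlib 3.10.9, R 4.3.3 and limma 3.58.1. The number of arrays limits the precision.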

Additional observations from a re-analysis of the deposited data

How the results depend on the processing

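No paired analysis was possible because each condition had 1 array. Naming probes by accession alone was not run as an alternative, since the files gave no other name and the reported values already rest on it. Normexp was run on the median spot brightness, an alternative chosen after seeing the data, as were its fit without outlier spots and the percentile without outlier spots. The 2 members past 2-fold lay at the threshold: over all alternatives *Ube2t* ran from -1.24 to -0.95 with MG132, and *Ube2s* from -1.103 to -0.88 with epoxomicin. With MG132, normexp gave 2 members at least 2-fold lower (*Ube2t* and the faint *Ube2dnl2*), and 0 when it was fitted without outlier spots. With epoxomicin, the count lower was 2 under normexp (the faint *Ube2d-ps* and *Ube2dnl2*), 0 under quantile normalization and 3 at 1.5-fold. With ONX, normexp gave 2 lower (the same faint genes). At 1.5-fold under the main processing, the counts higher were 3 with MG132, 3 with epoxomicin and 1 with ONX. Not all of these calls held under the alternatives. The median of members with MG132 moved to 0.0662 under normexp, to -0.13 after a shift to the array median and to -0.21 without scaling, where the median over all genes was -0.20. Of 561 values of single named members under alternatives, 88 moved by at least 0.0851, 37 of them under normexp. Of the 51 reported values of named members, 15 had another sign under at least 1 alternative, all of them within 0.252 of DMSO, among them *Ube2s* with MG132 (up to 0.139) and *Ube2a* and *Ube2l3* with 1 or more settings for each inhibitor. None of the 11 values at least 1.5-fold from DMSO did so. *Ube2f*, *Ube2g2*, *Ube2j1*, *Ube2j2*, *Ube2l6*, *Ube2o* and *Ube2q2* stayed above DMSO under every alternative run. The causes of these shifts were not tested.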
